A study of Mus musculus with 20 samples.

Results

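The interleukin-1 (IL-1) family and the NLRP3 inflammasome were followed in the mouse diaphragm 12 weeks after fibers had been placed in the pleural cavity. The set held 10 genes of the 34797 gene names on the array. They were Il1a, Il1b, Il18 and Il33, which encode the ligands; Il1rn, the natural IL-1 receptor antagonist; Il1r1 and Il1r2, the signaling and the decoy receptor; and Nlrp3, Pycard and Casp1, the sensor, adaptor and protease of the NLRP3 inflammasome. Members were chosen by name: each noncontrol probe whose gene name was among the 10 was taken, which gave 11 probes, with 2 for Nlrp3 and 1 for every other gene. All mice were female C57Bl/6, aged 8 weeks at injection, with 4 mice in each of 5 groups and 1 array per mouse. Vehicle control (VC) mice received bovine serum albumin in saline alone, and all fibers were dispersed in the same vehicle. Short-fiber and long-fiber amosite asbestos (SFA and LFA) were given at 25 µg per mouse, and short and long carbon nanotubes (SNT and LNT, labelled NTS and NTL) at 5 µg per mouse. LFA was a preparation of mixed length enriched for long fibers, and SFA was ground from asbestos of the same origin. The dose differed between asbestos and nanotubes, so fiber material and dose cannot be told apart in any comparison of LFA with LNT. RNA came from whole diaphragm tissue, in which muscle, pleural mesothelium and any lesion were mixed.

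IL-1α and IL-1β bind IL1R1 and switch on inflammatory gene expression through MYD88 and NF-κB. IL1RN occupies the same receptor without signaling, and IL1R2 captures the ligand without passing on a signal. IL-1β and IL-18 are made as inactive precursors that caspase-1 cleaves once NLRP3 and the adaptor ASC (Pycard) have assembled. NLRP3 in phagocytes is known to respond to taken-up particles, asbestos among them. IL-33 is held in the nucleus of barrier and stromal cells and is released on damage. Arrays measure RNA, so cleavage and release of the cytokines were not observed here.

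The promoters of the 4 genes called against vehicle in both long-fiber groups (Il1b, Il1r1, Il1r2 and Pycard) are shown first. That of Il1a, which lies on the same chromosome as Il1b and was too dim to test, is shown for comparison of sequence only. Each line gives the 150 bases before the annotated start in RefSeq on build GRCm38.p6, written in the direction of the gene, and for Il1r1 the first of its annotated starts.

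Il1b (chr2:129371140-129371289, minus strand): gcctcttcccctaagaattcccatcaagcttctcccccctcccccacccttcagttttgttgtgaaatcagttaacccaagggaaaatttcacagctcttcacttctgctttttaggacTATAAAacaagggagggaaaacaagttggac

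Il1a (chr2:129309973-129310122, minus strand): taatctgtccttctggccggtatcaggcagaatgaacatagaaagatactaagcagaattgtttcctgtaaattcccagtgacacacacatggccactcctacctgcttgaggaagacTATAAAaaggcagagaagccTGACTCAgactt

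Il1r1 (chr1:40224930-40225079, plus strand): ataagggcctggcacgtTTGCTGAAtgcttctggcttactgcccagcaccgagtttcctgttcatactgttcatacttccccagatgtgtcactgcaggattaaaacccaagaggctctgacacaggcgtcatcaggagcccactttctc

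Il1r2 (chr1:40085943-40086092, plus strand): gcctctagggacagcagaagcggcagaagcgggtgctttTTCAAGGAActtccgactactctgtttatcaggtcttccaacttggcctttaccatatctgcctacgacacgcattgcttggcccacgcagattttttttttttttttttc

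Pycard (chr7:127993868-127994017, minus strand): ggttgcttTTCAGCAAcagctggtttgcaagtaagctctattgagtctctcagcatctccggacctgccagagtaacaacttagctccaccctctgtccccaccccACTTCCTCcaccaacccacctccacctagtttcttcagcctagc

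Capitals mark matches, on either strand, to 6 motifs chosen with the expression values already known. They were the TATA box (TATAAA), AP-1 (TGANTCA), C/EBP (TTGCNNAA), the interferon-gamma activated site GAS (TTCNNNGAA), PU.1 (GAGGAAGT) and the NF-κB site κB. In the 250 bases before the start, the TATA box stood in 12.4% of all 32851 RefSeq promoter windows, and Il1b held it at -31 to -26 and Il1a at -32 to -27. Il1a also held an AP-1 match at -12 to -6, a motif found in 6.75% of windows. Il1r1 held a C/EBP match at -133 to -126, and Pycard held one at -142 to -135, against 9.56% of windows. In Pycard, PU.1 letters lay at -44 to -37 (2.44% of windows), and in Il1r2 GAS letters lay at -111 to -103 (7.02% of windows). The κB motif matched 2 of the 15 windows of the 10 genes, 1 of Il1rn and 1 of Nlrp3, and 4.11% of all windows. These matches describe letters only, and no factor binding was measured.

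Signals are given as the log2 of each probe's processed intensity minus the log2 of the 75th percentile of its array, so that 0 is the 75th percentile and 1 unit is a 2-fold step. The fit took in probes that at least 4 of the 20 arrays measured well above background, which was the case for 36920 of 55681 probes and for 9 of the 10 genes. A gene was called higher or lower in the limma fit when the log2 change was at least 1 and the Benjamini-Hochberg adjusted p over all probes tested was under 0.05. The 75th percentile of raw signal ran from 292 to 991 over the 20 arrays, and 53.0% to 68.1% of spots stood well above background. VC replicate 2 had the lowest of both and stood apart. It was the highest VC array for 7 of the 9 tested genes and the lowest for Il1r1. Markers of skeletal muscle were high in every group (summed level 1412 to 4101 times the 75th percentile). The 7 liver markers summed to over 1000 on 5 arrays (SFA replicate 2, LFA replicates 1 and 3, SNT replicates 3 and 4) and to 5.33 to 464 on the others, for which the labels give no account. Values without VC replicate 2, and without these 5 arrays together, are given with the results they touch. The arrays lay on 3 slides, and no slide held all 5 groups in equal number.

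**Figure D1:**
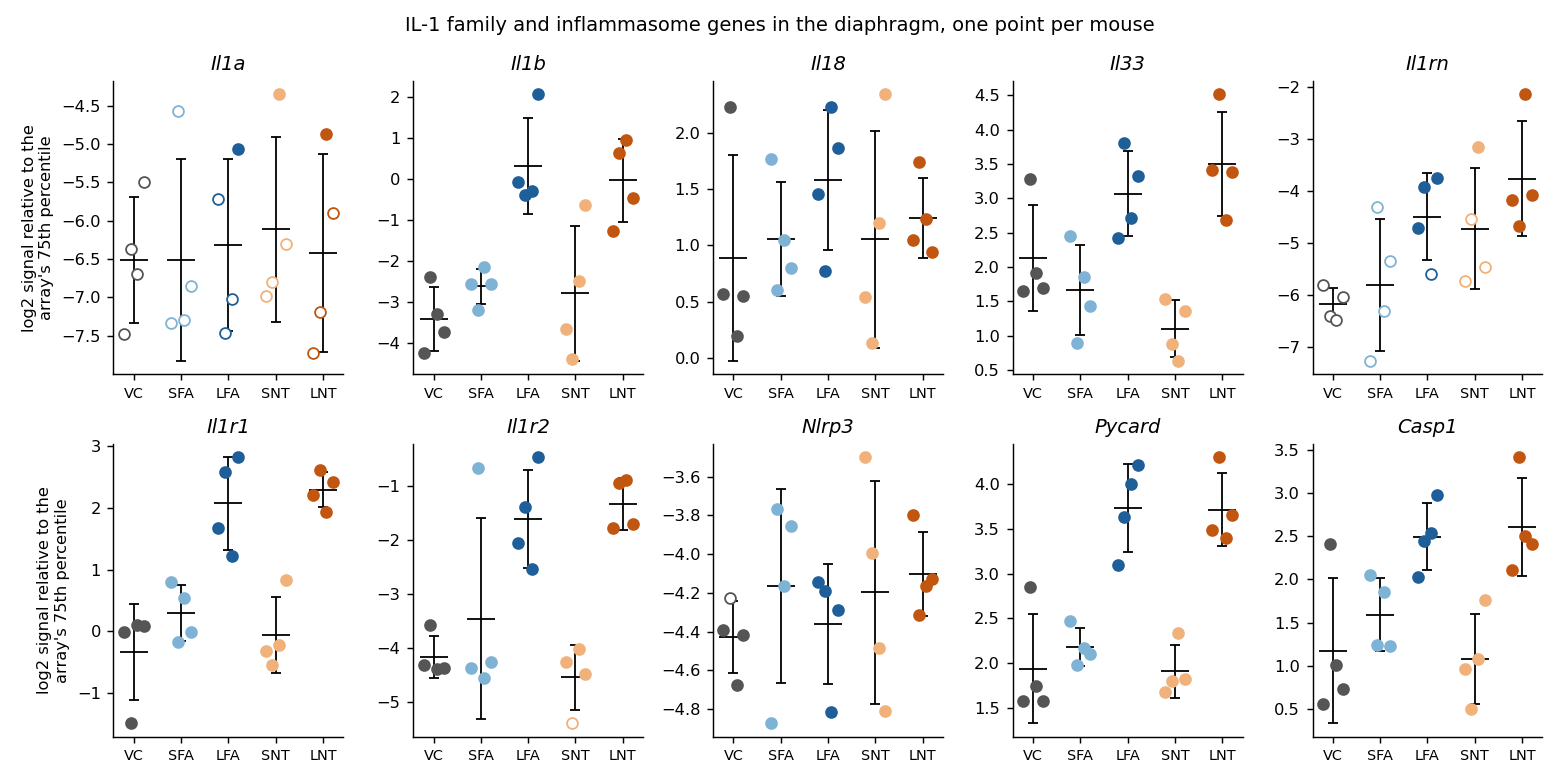
Log2 signal of each of the 10 genes (brightest probe) relative to the array's 75th percentile, by group, with 1 point per mouse (replicates 1 to 4 from left to right), the mean as a horizontal bar and the SD as the error bar; open points were not well above background, and the vertical scale differs between panels. The 8 LFA and LNT mice lay above all 12 others for Il1r1 and Pycard, whereas Nlrp3 and Il18 overlapped between all groups.

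Against VC, long fibers of either material were accompanied by higher RNA of the IL-1β ligand, both IL-1 receptors and the inflammasome adaptor. In LFA 4 of the 9 tested genes were called higher (Il1b, Il1r1, Il1r2 and Pycard) and 0 lower, where 2.21% of all 36920 probes were called higher and 1.75% lower. In LNT the same 4 and Casp1 were called higher and 0 lower, where 3.64% of probes were called higher and 3.16% lower. The fit also called Il1rn in LNT, 6 of 9 in all, but Il1rn was not well above background on any VC array and entered the fit through the groups where it was high, so this call adds no support. The mice of LFA stood wholly above those of VC for Il1b, Il1r1, Il1r2 and Pycard (4.57% of probes), and so did those of LNT (6.37% of probes). The median change over the 9 genes was 1.69 in LFA and 1.78 in LNT on the log2 scale, or 1.32 and 1.43 with Il1rn at its bound (defined below), against -0.28 and -0.25 over all probes tested. No member was called in SFA or in SNT, where 0% of probes were called by the same fit, and 851 and 1299 probes had an unadjusted p under 0.05. The SNT mice stood wholly below VC for 1 gene (Il33; 0.889% of probes) and wholly above VC for no gene with VC signal well above background (0.615% of probes). LFA and LNT were each compared with the same 4 VC arrays, so their changes are not independent of each other. Leaving out VC replicate 2 again gave 4 and 6 calls but not of the same genes. LFA lost Il1r2 (limma adjusted p = 0.0519) and gained Casp1 (adjusted p = 0.0144), and LNT lost Il1rn (adjusted p = 0.0744) and gained Il33 (adjusted p = 0.0254). Without the 5 arrays with high liver markers, Il1b, Il1r1, Il1r2 and Pycard were called in both groups and Il1rn and Casp1 in LNT. That fit kept only replicates 2 and 4 of LFA and replicates 1 and 2 of SNT.

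**Figure D2:**
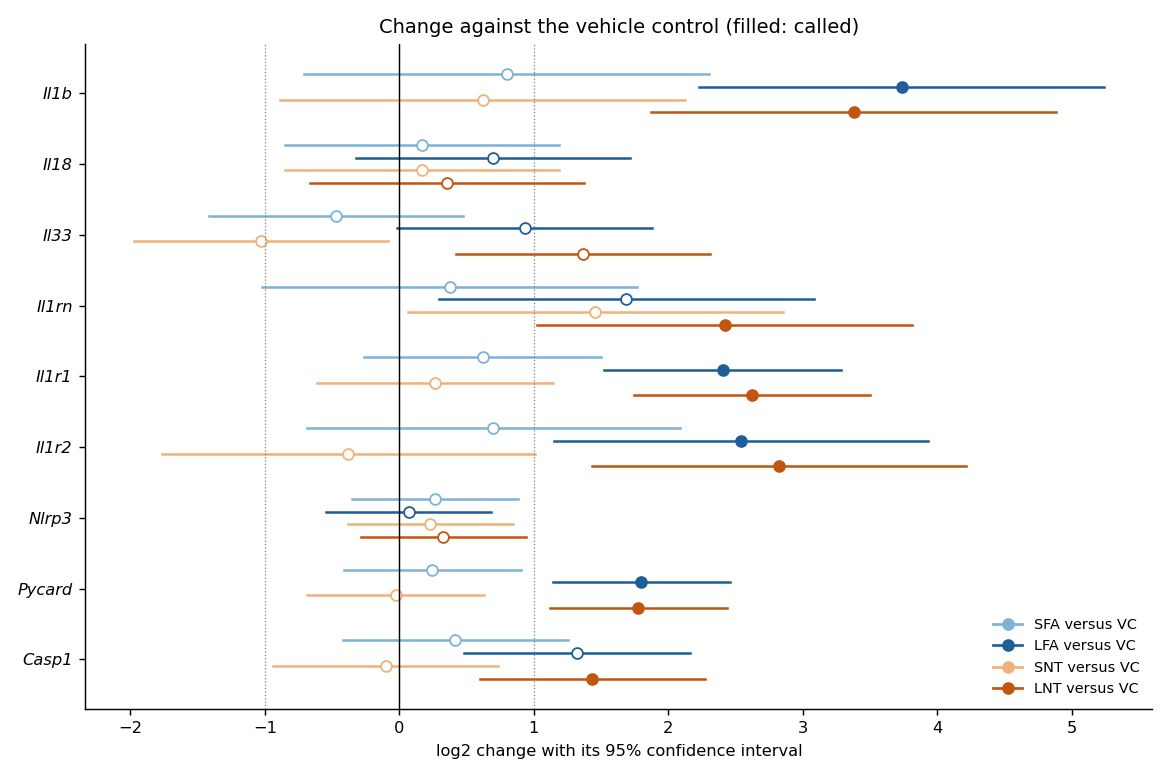
Log2 change of the 9 tested genes in each fiber group against VC from the limma fit (horizontal axis), with 95% confidence intervals as lines; filled points were called, and dotted lines mark a 2-fold change. Il1b had the largest change in LFA (3.74) and in LNT (3.38), and every point of the SFA and SNT groups is open; the points of Il1rn are fitted against VC signals that were not well above background.

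Among the ligands, Il1b moved most. Its probe (NM_008361; chr2:129190347-129190406 on the minus strand of NCBI37, the build named in the array files) is printed on 10 spots per array, whose median SD was 0.0896 log2 units. In VC mice 1 to 4 the log2 signal of Il1b was -4.23, -2.39, -3.28 and -3.72, in SFA mice -2.56, -3.18, -2.14 and -2.55, and in SNT mice -3.65, -4.38, -2.48 and -0.62. In LFA mice it was -0.06, -0.39, -0.29 and 2.07, and in LNT mice -1.27, 0.64, 0.97 and -0.44. All 8 long-fiber mice stood above all VC and SFA mice, but SNT replicate 4 stood above LNT replicate 1. The rise over VC was 3.74 (SE 0.72) in LFA, or 13.3-fold with a 95% confidence interval of 4.69 to 37.8 (limma adjusted p = 0.00831), and 3.38 (SE 0.72), or 10.4-fold (3.66 to 29.5), in LNT (limma adjusted p = 0.00791). LFA replicate 4 lay more than 2 units above the other LFA mice, and without it the rise in LFA was 3.15 (adjusted p = 0.0347). Without VC replicate 2 the rises were 4.07 (adjusted p = 0.00945) and 3.72 (adjusted p = 0.00928). On the 3 slides the LFA mice exceeded the VC mice by 4.61, 3.25 and 2.89, and on the 2 slides that held both, LNT exceeded VC by 2.04 and 3.67. Group means ordered as LFA, LNT, SFA, SNT and VC, with LFA and LNT overlapping and the other 3 overlapping.

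Il1a, the cell-associated IL-1, could not be followed. Its probe (NM_010554; chr2:129125994-129126053, minus strand, NCBI37) stood well above background on 3 of 20 arrays, 1 each from LFA (replicate 4, -5.07), SNT (replicate 3, -4.35) and LNT (replicate 3, -4.87). The group means lay between -6.51 in VC and -6.11 in SNT, and no fold was computed because both groups of each comparison were near or below background. The probe was left out of the fit.

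Il18, which encodes the other cytokine that caspase-1 releases, did not differ beyond the spread between mice. Its log2 signal (NM_008360; chr9:50389761-50389820, plus strand, NCBI37) was 0.57, 2.24, 0.19 and 0.55 in VC mice, 1.46, 0.77, 2.24 and 1.87 in LFA mice and 1.05, 1.74, 1.24 and 0.94 in LNT mice. SFA mice spanned 0.60 to 1.77 and SNT mice 0.13 to 2.35, so that all 5 groups overlapped. The difference from VC was 0.70 in LFA (95% confidence interval -0.32 to 1.72, limma adjusted p = 0.389) and 0.35 in LNT (-0.67 to 1.37, adjusted p = 0.717). Both intervals reach past a 2-fold rise, so a rise of that size was not excluded. Without VC replicate 2, the highest VC mouse, the differences were 1.15 (adjusted p = 0.154) and 0.80 (adjusted p = 0.331).

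Il33, the alarmin, was called between long and short nanotubes and not against VC. Its log2 signal (NM_001164724; chr19:30035101-30035160, plus strand, NCBI37) was 1.65, 3.28, 1.91 and 1.69 in VC mice, 2.45, 0.90, 1.86 and 1.43 in SFA mice and 1.54, 0.88, 0.63 and 1.36 in SNT mice. In LFA mice it was 2.42, 3.80, 2.71 and 3.32, and in LNT mice 3.41, 4.51, 2.68 and 3.39. Every LNT mouse stood above every SNT mouse, and every SNT mouse stood below every VC mouse. LNT exceeded SNT by 2.39 (SE 0.45, limma adjusted p = 0.00264), whereas LNT exceeded VC by 1.36 (SE 0.45, adjusted p = 0.0704) and LFA exceeded VC by 0.93 (SE 0.45, adjusted p = 0.215). SNT lay 1.03 below VC, with an unadjusted limma p of 0.0343 that did not pass after adjustment. VC replicate 2 was the highest VC mouse by more than 1 unit. Without it LNT passed the test (1.75, adjusted p = 0.0254), LFA did not (1.31, adjusted p = 0.1002), and the difference of SNT from VC was -0.65. Leaving out LNT replicate 3 also let LNT pass (adjusted p = 0.0498).

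Il1rn, the antagonist, was dim. Its probe (NM_001039701; chr2:24205094-24205153, plus strand, NCBI37) was well above background on 0 of 4 VC and 0 of 4 SFA arrays, 1 of 4 SNT arrays, 3 of 4 LFA arrays and 4 of 4 LNT arrays. The log2 signal was -5.81, -6.39, -6.47 and -6.03 in VC mice, -4.70, -3.92, -5.59 and -3.75 in LFA mice and -4.16, -4.66, -2.13 and -4.06 in LNT mice, with SFA at -7.26 to -4.30 and SNT at -5.73 to -3.15. The VC signals, all at background level, have no order, and the LFA, SNT and LNT mice overlapped with each other. Because VC gave only a bound, the mean level set against that bound was 2.34-fold higher in LNT (fitted log2 change 2.42, limma adjusted p = 0.0324). In LFA, where 3 of 4 arrays measured it, the mean level was 1.41-fold higher (fitted 1.69, adjusted p = 0.137). In SNT, where 1 of 4 arrays measured it, the mean level set against the bound was 1.20-fold higher. That value rests on 1 measured array, so nothing is read from it. The bound set the mean of the brighter group against the mean of the lowest signals that counted as well above background on the VC arrays (-4.98), or an array's own signal where that was higher. It takes in no spread between mice. Il1rn in SFA replicate 2 (-4.30) was not well above background, though the lowest signal that counted so on that array was -4.52. Such bounds, here and below, are therefore not strict minima. The call in LNT was lost when any 1 of the 4 VC arrays or LNT replicate 1, 3 or 4 was left out (adjusted p = 0.0525 to 0.104), and without VC replicate 2 it was 2.35 with adjusted p = 0.0744. With normexp background correction the change in LNT was 0.31 (adjusted p = 0.433).

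Both IL-1 receptors were higher in the long-fiber groups. Il1r1, the signaling receptor (NM_008362; chr1:40372667-40372726, plus strand, NCBI37), had a log2 signal of -0.01, -1.49, 0.10 and 0.09 in VC mice, 0.80, -0.17, 0.54 and -0.00 in SFA mice and -0.32, -0.54, -0.23 and 0.83 in SNT mice. It was 1.68, 2.58, 1.23 and 2.82 in LFA mice and 2.22, 2.61, 1.94 and 2.41 in LNT mice. The lowest long-fiber mouse (1.23) stood above the highest of the 12 other mice (0.83), a complete separation that 1.42% of probes showed. The rise over VC was 2.40 (SE 0.42; 5.30-fold, 2.88 to 9.74) in LFA, with limma adjusted p = 0.00441, and 2.62 (SE 0.42; 6.16-fold, 3.35 to 11.3) in LNT, with adjusted p = 0.00103. VC replicate 2 was more than 1 unit below the other VC mice, and without it the rises were 2.02 (adjusted p = 0.0106) and 2.24 (adjusted p = 0.00284). Within slides LFA exceeded VC by 1.93 to 2.47 and LNT exceeded VC by 2.22 to 2.97.

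Il1r2, the decoy receptor (NM_010555; chr1:40180014-40180073, plus strand, NCBI37) was the other receptor called in both groups. The log2 signal was -4.31, -3.57, -4.38 and -4.36 in VC mice, -4.36, -0.68, -4.54 and -4.25 in SFA mice and -4.25, -5.39, -4.02 and -4.48 in SNT mice. It was -2.07, -1.39, -2.54 and -0.47 in LFA mice and -1.78, -0.95, -0.89 and -1.71 in LNT mice. All long-fiber mice stood above all VC and SNT mice, and SFA replicate 2 stood with the long-fiber mice, more than 3 units above the other SFA mice. The rise was 2.54 (SE 0.66; 5.82-fold, 2.22 to 15.2) in LFA (limma adjusted p = 0.0377) and 2.82 (SE 0.66; 7.08-fold, 2.70 to 18.5) in LNT (adjusted p = 0.0144). The call in LFA was lost when any 1 VC array or LFA replicate 1, 2 or 4 was left out (adjusted p = 0.0519 to 0.109), and without VC replicate 2 the rise was 2.74. The call in LNT held for each array left out in turn (adjusted p up to 0.0415). Over the processing alternatives run, the lowest rise of Il1r2 was 1.30 in LFA and 1.43 in LNT. Its signal in SNT replicate 2 (-5.39) was not well above background. Within slides LFA exceeded VC by 1.87 to 2.997 and LNT exceeded VC by 2.17 to 3.20.

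Of the 3 inflammasome genes, Pycard was called against VC in both long-fiber groups, Casp1 in LNT and Nlrp3 in neither. Differences between these genes were not tested. Nlrp3, the sensor, had 2 probes (NM_145827; chr11:59378554-59378613 and chr11:59379981-59380040, plus strand, NCBI37). With the brighter probe the log2 signal of Nlrp3 was -4.39, -4.23, -4.68 and -4.42 in VC mice, -4.14, -4.19, -4.81 and -4.29 in LFA mice and -3.80, -4.31, -4.16 and -4.13 in LNT mice, and SFA and SNT mice spanned -4.87 to -3.77 and -4.81 to -3.50. All groups overlapped, between -4.87 and -3.50. The difference from VC was 0.07 in LFA (95% confidence interval -0.55 to 0.68, limma adjusted p = 0.900) and 0.33 in LNT (-0.29 to 0.94, adjusted p = 0.546), so the interval in either group stayed below a 2-fold rise. These signals lay near background, and VC replicate 2 was not well above it, so a 2-fold rise in level was not excluded. The second probe was well above background on 7 of 20 arrays and on 0 of 4 VC arrays, with fitted differences of 0.11 in LFA and -0.11 in LNT, and no fold bound could be set from it.

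Pycard, which encodes the adaptor ASC, was the inflammasome member called in both groups. The log2 signal (NM_023258; chr7:135136241-135136300, minus strand, NCBI37) was 1.58, 2.84, 1.74 and 1.57 in VC mice, 2.47, 1.98, 2.17 and 2.10 in SFA mice and 1.67, 1.80, 2.34 and 1.82 in SNT mice. It was 3.09, 3.63, 4.00 and 4.21 in LFA mice and 3.49, 4.30, 3.40 and 3.65 in LNT mice. As for Il1r1, every long-fiber mouse (lowest 3.09) stood above every other mouse (highest 2.84, VC replicate 2). The rise was 1.80 (SE 0.31; 3.48-fold, 2.21 to 5.50) in LFA and 1.78 (SE 0.31; 3.43-fold, 2.17 to 5.41) in LNT, with limma adjusted p = 0.00441 and 0.00217. Without VC replicate 2 the rise in LFA was 2.10 (adjusted p = 0.000847). Slide 2, which held VC replicate 2, gave the smallest differences from VC, 0.88 for LFA and 1.28 for LNT, against 1.89 to 2.54 on the other slides.

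Casp1, which encodes the protease, was called in LNT and not in LFA, with nearly equal changes. Its log2 signal (NM_009807; chr9:5307206-5307265, plus strand, NCBI37) was 0.55, 2.41, 1.01 and 0.73 in VC mice, 2.03, 2.44, 2.54 and 2.98 in LFA mice and 2.11, 3.42, 2.51 and 2.41 in LNT mice, with SFA at 1.23 to 2.05 and SNT at 0.50 to 1.76. VC replicate 2 stood among the long-fiber mice, so the groups overlapped through 1 control mouse. The change was 1.32 (SE 0.40, limma adjusted p = 0.0635) in LFA and 1.43 (SE 0.40, adjusted p = 0.0342) in LNT, and the difference between LFA and LNT was -0.11 (95% confidence interval -0.95 to 0.72). Without VC replicate 2 both passed (1.73, adjusted p = 0.0144, and 1.85, adjusted p = 0.00515), and without SNT replicate 4 LFA passed (adjusted p = 0.0418). The call in LNT was lost when VC replicate 1, 3 or 4 or LNT replicate 2, 3 or 4 was left out (adjusted p = 0.0614 to 0.102).

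Fiber length was compared within each material, which answers whether the long form differed from the short form at the same dose. SNT were bought and LNT were made in an academic laboratory, so length and source of the nanotubes cannot be told apart, whereas both asbestos preparations came from 1 batch. LNT exceeded SNT for 6 of 9 genes (Il1b, Il1r1, Il1r2, Il33, Casp1 and Pycard), where 4.92% of probes were called higher, and LFA exceeded SFA for 2 of 9 (Il1r1 and Pycard), where 1.03% were called higher. The mice of the long and short form did not overlap for 5 genes with nanotubes (Il1r1, Il1r2, Il33, Casp1 and Pycard; 7.67% of probes stood wholly higher) and for 3 with asbestos (Il1b, Il1r1 and Pycard; 3.15% of probes). No gene was called lower with the long form in either material. LNT lay on slides 2 and 3 and SNT on slides 1 and 2, and with slide as a block the calls of Il1b, Il33 and Casp1 between nanotubes were lost (limma adjusted p = 0.0604, 0.0555 and 0.112), which left 3, and both asbestos calls were lost (Il1r1, adjusted p = 0.125, and Pycard, adjusted p = 0.0785). For Il1b the difference was 2.76 (6.76-fold, 2.38 to 19.2; limma adjusted p = 0.0230) between nanotubes and 2.94 (7.66-fold, 2.70 to 21.7; adjusted p = 0.0544) between asbestos preparations, and LFA and SFA mice did not overlap. For Il1r1 it was 2.36 (adjusted p = 0.00171) and 1.79 (adjusted p = 0.0432), and for Pycard 1.81 (adjusted p = 0.00143) and 1.56 (adjusted p = 0.0170). Il1r2 differed by 3.20 between nanotubes (adjusted p = 0.00527), and by 1.84 between asbestos preparations (adjusted p = 0.257), where SFA replicate 2 decided the result. Without that mouse the difference for Il1r2 was 2.77 (adjusted p = 0.00714). Casp1 differed by 1.54 (adjusted p = 0.0229) and 0.90 (adjusted p = 0.354).

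The length effect was not shown to depend on the material. The contrast of the 2 length effects called 0 of 9 genes, and the widest gap, for Il1r2, was -1.36 (asbestos minus nanotubes, 95% confidence interval -3.32 to 0.60, limma unadjusted p = 0.163). SFA replicate 2 set that value, and without it the gap for Il1r2 was -0.43 and that for Il33 was -1.24. LFA and LNT themselves differed in 0 of 9 genes by limma, with 0 unadjusted p under 0.05, where 0% of probes were called and 569 had an unadjusted p under 0.05. The 95% confidence interval of the difference lay within 1 unit of 0 for Nlrp3 (-0.87 to 0.36), Pycard (-0.64 to 0.68) and Casp1, but reached -1.15 to 1.86 for Il1b and -2.13 to 0.66 for Il1rn. Several calls depended on which mice were kept. Without the 5 arrays with high liver markers, LFA against SFA again had 2 calls, Il1r1 and Il1r2 (3.45, limma adjusted p = 0.00264), and Pycard missed the threshold (1.68, adjusted p = 0.0627). That fit kept only replicates 2 and 4 of LFA. The call of Pycard between LFA and SFA was lost without SFA replicate 2, 3 or 4 or LFA replicate 2 or 4 (adjusted p = 0.0501 to 0.0840), and that of Il1r1 was lost for 16 of the 20 arrays left out in turn (adjusted p = 0.0515 to 0.177; it held without VC replicate 2, LFA replicate 3, SNT replicate 2 or SNT replicate 4). Il1b passed between LFA and SFA without SNT replicate 2 or 4 (adjusted p = 0.0383 and 0.0180). Between LNT and SNT the call of Il1b was lost without SNT replicate 1 or 2 or LNT replicate 2 or 3 (adjusted p = 0.0636 to 0.0844), and that of Casp1 without SNT replicate 2 or 3 or LNT replicate 2 (adjusted p = 0.0540 to 0.0820). LNT and SNT met on slide 2 alone, with 1 and 2 mice, and differed there by 2.75 for Il1b, 2.65 for Il1r1, 3.04 for Il1r2, 2.20 for Il33, 1.37 for Casp1 and 1.76 for Pycard.

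**Figure D3:**
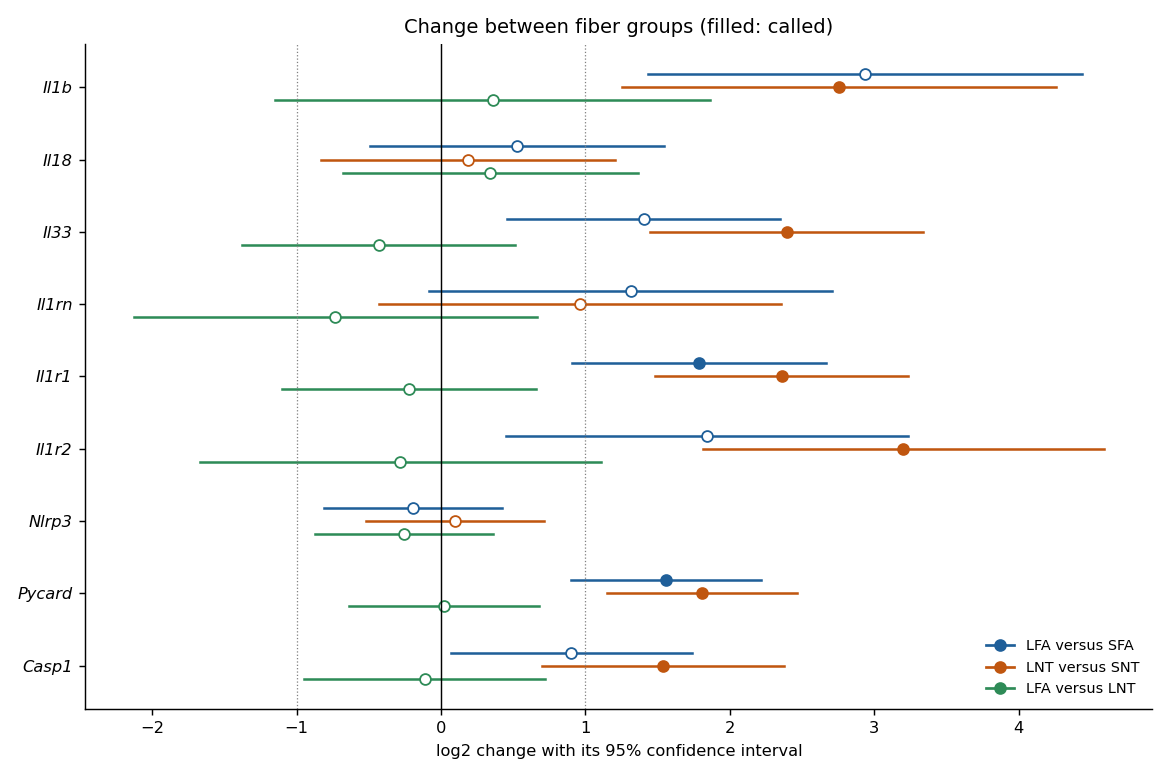
Log2 change between the long and the short form of each material, and between LFA and LNT, for the 9 tested genes (horizontal axis), with 95% confidence intervals as lines; filled points were called and dotted lines mark a 2-fold change. For nanotubes 6 points are filled and for asbestos 2, and every interval for LFA versus LNT crosses 0.

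Some mice held the highest or lowest place in their group for several genes, though not all in 1 direction. LFA replicate 4 was the highest LFA mouse for 6 of the 9 tested genes, and LNT replicate 2 the highest LNT mouse for 5 of 9 and the lowest for 2. SFA replicate 2 was the lowest SFA mouse for 5 of 9 genes, yet the highest for 3, among them Il1r2. SNT replicate 2 was the lowest SNT mouse for 5 of 9, and SNT replicate 4 the highest for 4 of 9, among them Il1b and Il18.

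The rest of the IL-1 pathway was read from gene lists. Among the other ligands and antagonists (Il36a, Il36b, Il36g, Il36rn, Il1f10 and Il18bp), only Il18bp, which binds and blocks IL-18, was bright enough to test, and its change was 0.78 in LFA (limma adjusted p = 0.0811) and 0.72 in LNT (adjusted p = 0.0864). Of 8 other family receptors 6 were tested. Il18r1, the ligand-binding chain of the IL-18 receptor, rose in both groups, by 1.85 (SE 0.38, adjusted p = 0.0117) in LFA and 1.48 (SE 0.38, adjusted p = 0.0217) in LNT, from a mean log2 signal of -1.94 ± 0.65 (SD, n = 4) in VC. Il1rl1, the IL-33 receptor, had a change of 1.26 (adjusted p = 0.114) in LFA and 1.17 (adjusted p = 0.132) in LNT. Il1rap, the shared accessory chain, had a change of 2.24 with an SE of 1.34 in LFA (adjusted p = 0.314) and 0.67 in LNT (adjusted p = 0.814).

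Genes that carry the signal from these receptors had medians near 0. Of 14 tested, 0 were called in LFA and 1 in LNT, where 2.21% and 3.64% of all probes were called higher. The median changes were 0.02 and -0.10, against -0.28 and -0.25 over all probes tested. The 1 gene was Irak4, a kinase that binds MYD88, which rose by 1.12 (SE 0.27, limma adjusted p = 0.0163) in LNT and had a change of 0.85 (adjusted p = 0.0747) in LFA. Myd88, the adaptor, had changes of 0.87 in LFA and 0.78 in LNT (adjusted p = 0.0307 and 0.0326), which did not reach 2-fold.

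Of 21 other inflammasome genes, 7 were called higher in LFA and 7 in LNT, where 2.21% and 3.64% of all probes were called higher. The median changes were 0.71 and 0.90, and 1 gene was called lower in LNT, where 3.16% of probes were called lower. Mefv, which encodes pyrin, rose by 2.58 (SE 0.42, limma adjusted p = 0.00281) in LFA and 2.65 (SE 0.42, adjusted p = 0.00101) in LNT. P2rx7, the ATP-gated channel that opens upstream of NLRP3, rose by 1.57 (adjusted p = 0.0174) and 1.93 (adjusted p = 0.00225). Nlrp1b was well above background on 0 of 4 VC arrays and, by the same bound as for Il1rn, was 4.62-fold higher in LNT (limma adjusted p = 0.0250). The short-fiber groups also showed it, on 2 of 4 SFA and 3 of 4 SNT arrays, against 3 of 4 LFA and 4 of 4 LNT arrays. Naip2 rose by 1.61 and 1.59, and Naip6 by 1.55 and 1.75 (adjusted p = 0.00780 to 0.0272); the Naip genes are near-identical copies, so which of them was measured is uncertain. Nlrp12, another NLR family gene, fell by 1.83 (adjusted p = 0.0436) in LNT. Naip1 and Nlrc4 were the other genes called higher in both groups, and Casp4, the protease of the noncanonical pathway, was the other called in LFA. These 3 were named after their values were seen. Naip1 was well above background on 1 of 4 VC arrays. It passed the filter only through LFA and LNT, where it was high, so its calls add no support.

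Most of the tested genes known to respond to IL-1 were called higher in both long-fiber groups. Of 14 tested, 8 were called higher in LFA and 8 in LNT (Il6, Cxcl1, Cxcl2, Cxcl5, Ccl2, Ptgs2, Saa3 and Mmp3), where 2.21% and 3.64% of all probes were called higher. Lcn2, Nfkbia, Nfkbiz, Tnfaip3 and Icam1 were called in neither group. Cxcl2 entered the fit only through LFA and LNT, where it was high, so its call adds no support. The median changes were 2.18 and 2.27, or 1.66 and 1.65 with Cxcl2 at its bound. Il6 was well above background on 1 of 4 VC arrays. Cxcl5, a neutrophil-attracting chemokine, rose by 5.68 (SE 0.73, limma adjusted p = 0.000377) in LFA and 5.47 (adjusted p = 0.000232) in LNT. Saa3, a local acute phase protein, rose by 4.37 (adjusted p = 0.000418) and 5.35 (adjusted p = 3.94e-05), and Il6 by 3.70 (adjusted p = 0.000622) and 4.06 (adjusted p = 0.000131). Mmp3, a matrix protease, rose by 2.34 (adjusted p = 0.0238) and 3.03 (adjusted p = 0.00249), and Ptgs2, which encodes cyclooxygenase-2, by 2.58 (adjusted p = 0.00500) and 2.53 (adjusted p = 0.00255). Cxcl2 was well above background on 0 of 4 VC arrays and, by the same bound as for Il1rn, was 2.10-fold higher in LNT. Sod2 fell by 1.10 (adjusted p = 0.0259) in LNT and was named after its value was seen. These genes answer to other signals too, so their levels do not single out IL-1.

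Between the long and the short form, more genes of these lists were called with nanotubes than with asbestos, as was so of all probes (4.92% against 1.03% called higher). Of the 6 other receptors tested, Il18r1 was called higher in LNT than in SNT (1.74), and 0 were called between LFA and SFA. The fit also called Il18rap, the other chain of the IL-18 receptor (limma adjusted p = 0.0353), which was well above background on 0 of 4 SNT arrays and 3 of 4 LNT arrays. Il18rap entered the fit only through LFA and LNT, so this call adds no support. By the same bound as for Il1rn its level in LNT was 1.26-fold higher. Of the 14 signaling genes, 1 was called higher between nanotubes (Nfkb1, an NF-κB subunit, 1.18) and 0 between asbestos preparations. Of the 21 other inflammasome genes, 8 were called higher and 1 lower (Nlrp12, -1.76) between nanotubes, and 1 higher between asbestos preparations (Mefv, 2.27, limma adjusted p = 0.0105). Naip1 and Cxcl2, both called between nanotubes, were well above background on 0 of 4 SNT arrays, and by the same bound their levels in LNT were 2.74-fold and 2.03-fold higher. Naip1 and Cxcl2 passed the filter only through LFA and LNT, so their calls add no support. Of the 14 IL-1 responsive genes tested, 8 were called higher between nanotubes and 5 between asbestos preparations (Il6, Cxcl5, Ccl2, Ptgs2 and Saa3, by 2.28 to 4.68). The genes in brackets that the rule did not name were named after their values were seen, and the difference between these counts was not tested.

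**Figure D4:**
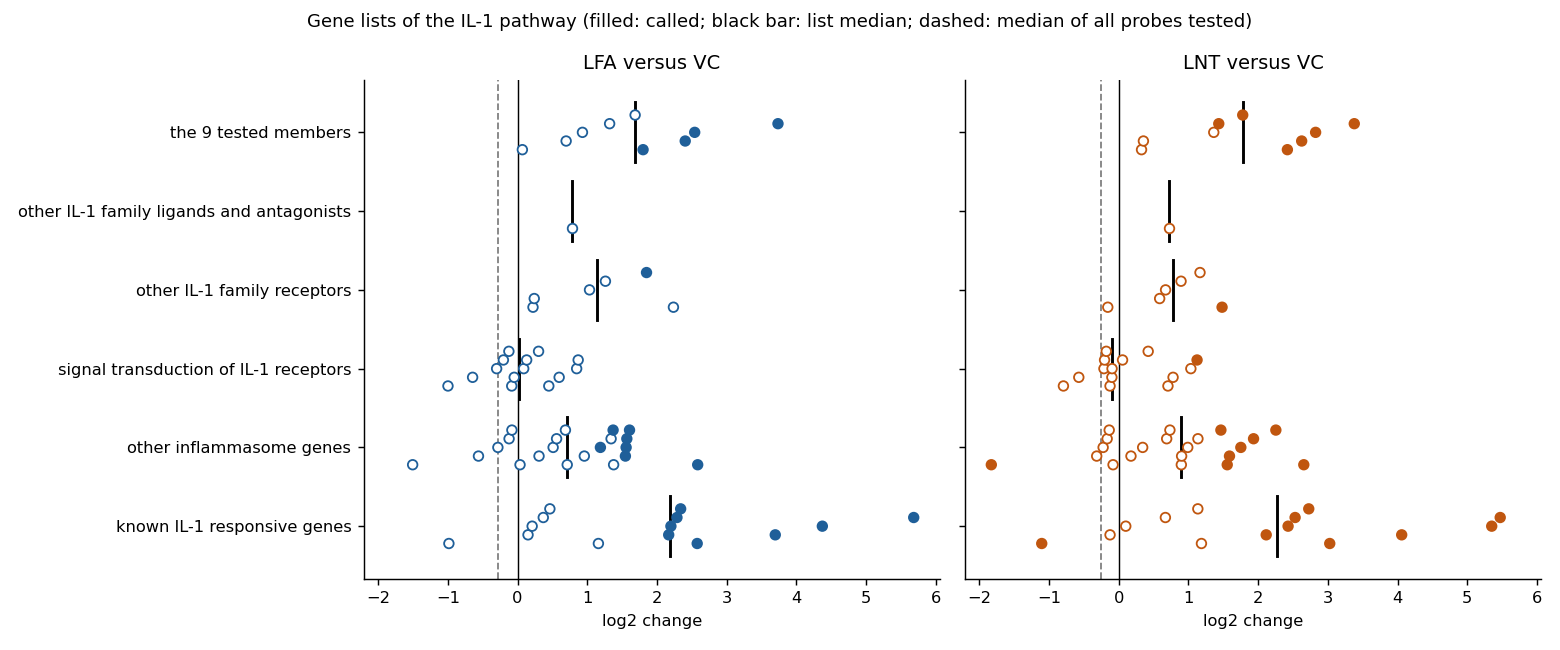
Log2 change of each tested gene of the IL-1 lists in LFA (left) and LNT (right) against VC (horizontal axis), 1 point per gene with vertical offsets for legibility only; filled points were called, the black bar is the list median and the dashed line the median of all probes tested. The receptor signaling list is centred near 0 (medians 0.02 and -0.10), while the list of known IL-1 responsive genes has medians of 2.18 and 2.27.

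Some cell type markers moved with the same groups, and others overlapped between groups. The 10 macrophage markers summed to 77.7 to 120 times the 75th percentile in VC, 85.7 to 141 in SFA and 73.3 to 140 in SNT, against 204 to 292 in LFA and 251 to 335 in LNT, and 7 of the 10 were called higher in each long-fiber group. The 3 not called were Cd163, Lyz2 and Itgam. The 11 neutrophil markers overlapped between all groups (114 to 215 in VC, 132 to 203 in LFA and 125 to 149 in LNT), with 1 called higher in LFA (Cxcr2, 2.56) and 0 in LNT. The 6 measured B and plasma cell markers summed to 27.2 to 58.5 in VC, 158 to 219 in LFA and 194 to 317 in LNT, but 1 of the 6 was called in each long-fiber group (Jchain, by 3.02 and 3.34), and the median changes were 0.49 and 0.65. Skeletal muscle markers summed to 2783 to 4101 in VC, 1429 to 1977 in LFA and 1412 to 1689 in LNT, with 1 of 8 called lower in LFA and 2 of 8 in LNT. Fibroblast markers summed to 562 to 893 in VC, 587 to 1167 in LFA and 750 to 1329 in LNT, with 1 of 6 called higher in LFA and 4 of 6 in LNT, and mesothelial markers overlapped (62.8 to 130 in VC, 54.9 to 145 in LFA and 55.1 to 77.7 in LNT). Endothelial markers summed to 34.0 to 42.4 in VC, 29.6 to 33.8 in LFA and 32.2 to 35.7 in LNT, with 0 called. T cell markers summed to 6.49 to 13.0 in VC, 9.25 to 16.5 in LFA and 14.2 to 18.5 in LNT, with 1 of 8 called higher in LNT. Of 5 adipocyte markers, 1 was called lower in LFA and 2 in LNT, and mast cell sums overlapped. The part of these shifts in the changes of Il1b, Il1r1, Il1r2, Pycard and Casp1 was not tested. In whole tissue, more cells that express a gene and more RNA per cell cannot be told apart.

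**Figure D5:**
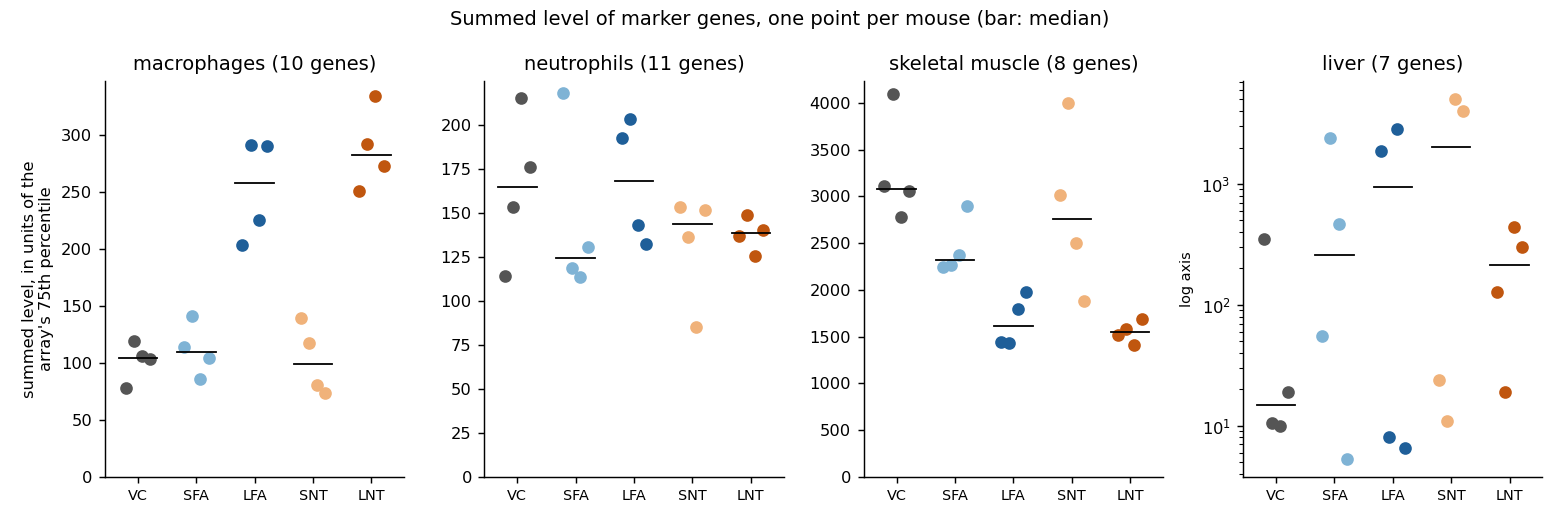
Summed level of marker genes per mouse, in units of the array's 75th percentile, for macrophages, neutrophils, skeletal muscle and liver by group, with 1 point per mouse and the group median as a bar; the liver panel has a log axis. Macrophage sums of the 8 long-fiber mice (204 to 335) lie above those of the 12 others (73.3 to 141), while the liver sums differ between mice within groups.

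Genes with the pattern most like 3 of the members were found by the Euclidean distance over the 4 log2 changes against VC, among 15121 named genes; the 4 changes share the VC arrays. Closest to Il1b were Ccl4 (distance 0.485), Irg1 (0.487), Ccl3 (0.620) and Fpr1 (0.674). Ccl3 and Ccl4 encode macrophage chemokines, and the change of Ccl3 was 3.49 in LFA and 3.91 in LNT, with 0.95 for SFA and 0.74 for SNT. Closest to Il1rn, whose changes rest on background-level VC signals, were Brip1 (0.240), Clec4a4 (0.357), Slc7a2 (0.438) and Chst5 (0.637). Closest to Nlrp3 were Pias1 (0.0682), Itgb5 (0.0718), Tgfbr3 (0.0856) and Pabpc1l (0.130), genes that likewise stayed within 0.38 log2 units of VC in all 4 groups.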

How the data were processed

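RNA of 20 diaphragms was labelled with Cy3 and hybridized to 1-colour 60-mer arrays. Per the file headers the authors read the scans with Agilent Feature Extraction 10.7.3.1 and deposited processed spot intensity, background subtracted; the mean and median background intensity columns of the same files were used for an alternative. The authors also deposited a table of normalized log2 values, 1 column of group means per group, centred per probe. Its columns had medians of -0.17 to 0.21 and, once centred, followed the group means computed here; it holds no single mice and was used for no test.

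From the 59305 noncontrol spots per array, 92 to 204 outlier spots were left out, 0 were saturated, spots of a probe were averaged, and log2 values were centred on the 75th percentile of the array. One limma 3.58.1 fit (R 4.3.3) of 5 group means over all 20 arrays gave every contrast, in place of the methods' test, which was run as an alternative. The number of arrays, 4 per group, limits the precision. A gene was represented by its brightest probe. The 10 members, the gene lists, the motifs and the tests were chosen with earlier results of these data known. Named genes were all members, and from each other list those called in LFA or LNT against VC, at most 6 by the larger absolute change; the 4 genes nearest to Il1b, Il1rn and Nlrp3 were added. The script was tested on simulated data. Alternatives were quantile normalization, normexp with an offset of 50, other filters, slide, scan day and replicate blocks, array brightness, single groups, other probes of a gene and arrays left out. Exon and UTR positions of the probes were not analysed here, because no NCBI37 annotation was used.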

Additional observations from a re-analysis of the deposited data

Results flagged for a closer look

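Single mice stood far from the rest of their group, by Dixon's test at the 95% level, in 8 of 55 sets of 4 mice (11 probes in 5 groups), where chance gives about 1 in 20 sets. VC replicate 2 accounted for 4 of them. It lay at -1.49 for Il1r1 (others -0.01 to 0.10), -3.57 for Il1r2 (others -4.38 to -4.31), 3.28 for Il33 (others 1.65 to 1.91) and 2.84 for Pycard (others 1.57 to 1.74). This array also had the lowest 75th percentile (292) and the lowest share of spots well above background (53.0%), and the part of these in its values was not tested.

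LFA replicate 4 lay at 2.07 for Il1b, against -0.39 to -0.06 in the other LFA mice. SFA replicate 2 lay at -0.68 for Il1r2, against -4.54 to -4.25, and at -3.84 for the second probe of Nlrp3, against -5.57 to -5.36. LNT replicate 2 lay at -7.27 for the second probe of Nlrp3, against -4.88 to -4.76 in the other LNT mice.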

How the results depend on the processing

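The number of genes called between LFA and SFA (2) was the least stable: it was 1 with no filter, 1 with a replicate block, 1 with array brightness as a covariate, 0 with slide as a block, 0 with only the arrays of the groups compared, and 0 to 3 with each array left out. Between LNT and SNT (6) it was 3 with slide as a block, which lost Il1b, Il33 and Casp1 (limma adjusted p = 0.0604, 0.0555 and 0.112). It was 4 with scan day as a block, 4 with only the arrays of the groups compared, and 4 to 6 with each array left out. With each array left out it was 3 to 5 for LFA against VC (4) and 4 to 6 for LNT against VC (6). Quantile normalization gave 6 and 7 calls for these comparisons, and slide as a block gave 3 and 4. It was 0 under every setting run for SFA and SNT against VC, for LFA against LNT and for the contrast of length effects. The cause was not tested.

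Over single genes, 854 of 894 values under the other alternatives kept their side of the threshold, 28 lost a call and 12 gained one, and with single arrays left out 1385 of 1440 kept it, 48 lost a call and 7 gained one. No called value turned its direction. Il1b and Il1r1 against VC in both long-fiber groups, and Il1r2 and Pycard in LNT, kept their calls under every alternative run. Pycard in LFA missed the threshold when only LFA and VC were fitted (adjusted p = 0.0542). Il1r2 in LFA missed it with normexp (adjusted p = 0.0706), no filter (0.0555) and slide as a block (0.0671). Casp1 passed in LFA with quantile normalization, normexp, the filter on all arrays and array brightness (adjusted p = 0.0218 to 0.0451), and Il1b passed between LFA and SFA with normexp, the filter on all arrays and the mean of probes (0.0388 to 0.0415). Il1rn passed in LFA with quantile normalization (2.22, adjusted p = 0.0424) and missed it in LNT with slide (0.0912) or scan day (0.0949) as a block and with array brightness (0.0909). Casp1 in LNT missed it with no filter (0.0527), slide (0.0813), scan day (0.0935), the replicate block (0.0528) and only the groups compared (0.0963).

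Replicate numbers did not pair the mice: deviations from group means correlated at -0.676 to 0.689 over 40 same-numbered pairs (median -0.09). The median change of all probes was -0.28 in LFA and -0.25 in LNT, and -0.08 and -0.09 with quantile normalization, which turned 816 higher and 646 lower calls in LFA into 983 and 312. The methods' test over 5 groups passed 5 genes (Il1b, Il1r1, Il1r2, Il33 and Pycard) where limma passed 6, Casp1 being the other. The scan block and the brightness and liver marker settings were chosen after seeing the data. The authors' table of group means gives no test and so no count. Signals of Il1a, Il1rn and the second Nlrp3 probe were limited by background. Those of the brighter Nlrp3 probe, and of Il1r2 in most mice without long fibers, lay near it.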
